A study of Drosophila melanogaster and Drosophila simulans and Drosophila yakuba with 8 samples.

Results

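Testes in which the gene Zeus was knocked down were compared directly with testes in which its parent gene Caf40 was knocked down. The comparison used 4 of the 8 samples of the study, 2 libraries per knockdown, and took in the 10184 of 15178 listed genes whose mean expression over these 4 libraries was at least 1 RPKM (reads per kilobase of exon, scaled by the mapped reads of the library). No wildtype library entered any test. Every library was made from messenger RNA of testes dissected from adult Drosophila melanogaster aged 1 to 7 days. Both groups carry the strain label Oregon-R. Per the labels the genotypes were nosGal4>>UAS-Zeus-RNAi and nosGal4>>UAS-Caf40-RNAi, so both groups share the nanos-Gal4 driver and differ in the hairpin construct. The nanos driver is active in the germline, mainly in its early stages, so a knockdown made with it is not a knockout and does not cover the somatic cells of the testis equally. The labels give no insertion site for either construct and no driver-only control entered, so an effect of the construct and an effect of the target gene cannot be told apart. The number of flies per library is not stated either, so the p-values speak of the variation among these 4 libraries, part of which may be technical.

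Caf40 is Rcd-1 in the current annotation, on the X chromosome. Its protein is a conserved subunit of CCR4-NOT, which removes poly(A) tails from messenger RNAs and thereby starts their decay. Zeus is Rcd-1r, on chromosome arm 2L, a retrotransposed copy of Rcd-1 that lacks its introns and is expressed in testis. In the fly testis, germline stem cells at the tip give rise to spermatogonia, which divide by mitosis, then grow as spermatocytes, pass through meiosis and elongate as spermatids. Most transcripts of spermatids are made earlier, in spermatocytes, under testis-specific TAFs (subunits of the general transcription factor TFIID) and the testis complex tMAC, and are stored. Many housekeeping genes have a testis copy that is transcribed in this programme. Transcripts of dividing cells, such as those for replication and for making ribosomes, belong mainly to the early germline.

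The 2 Zeus knockdown libraries held 12662615 and 22100567 reads assigned to genes, and the 2 Caf40 knockdown libraries held 12837755 and 18070275. For a gene of 1 kilobase, 3 reads correspond to between 0.133 and 0.232 RPKM. The Zeus replicates were close to each other, with a chi-square of 2.11 per degree of freedom across genes, and the Caf40 replicates were further apart, at 15.5. Caf40 knockdown replicate 2 lay nearer to the Zeus libraries than replicate 1 did. Among genes at least 2-fold higher in the Caf40 knockdown, replicate 1 was above replicate 2 in 84.2%, by a median of 0.16 on the log2 scale. Among genes at least 2-fold higher in the Zeus knockdown, Caf40 replicate 1 was above replicate 2 in only 12.9%, with a median difference of -0.30. Printed RPKM values are the authors' and are scaled by mapped reads. Printed log2 differences are Zeus minus Caf40 knockdown from edgeR, scaled by TMM (trimmed mean of M values), so a positive value means higher in the Zeus knockdown. The scaling factors were 0.893 and 0.886 for Zeus and 1.16 and 1.09 for Caf40, which lifts Zeus against Caf40 by 0.34 on the log2 scale compared with RPKM, and a gene of equal RPKM in all libraries has a positive log2 difference.

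Each target gene was the lower of the pair of groups in its own knockdown. Rcd-1 measured 79.3 and 77.9 RPKM in the Zeus knockdown and 25.7 and 23.3 RPKM in the Caf40 knockdown. It was 4.05-fold higher in the Zeus knockdown (log2 difference 2.02, SE 0.11, adjusted p = 9.11e-10). Rcd-1r measured 4.05 and 4.04 RPKM in the Zeus knockdown and 135 and 114 RPKM in the Caf40 knockdown. It was 24.3-fold higher in the Caf40 knockdown (log2 difference -4.60, SE 0.13, adjusted p = 2.64e-11). The groups did not overlap for either gene, and the difference was larger for the copy than for the parent. Rcd-1r made up 4.85% and 4.93% of the summed RPKM of the copies in the Zeus libraries and 84.0% and 83.0% in the Caf40 libraries. The sum itself was 83.3 and 81.9 RPKM in the Zeus libraries and 160.3 and 137.1 RPKM in the Caf40 libraries, so the balance between the copies was turned over and their total was not level.

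A second gene, CG13102, overlaps Rcd-1r on the opposite strand in the reference annotation, and its difference was almost the same. It measured 2.66 and 2.64 RPKM in the Zeus knockdown and 87.3 and 73.7 RPKM in the Caf40 knockdown (log2 difference -4.59, SE 0.13, adjusted p = 2.64e-11). Exon-junction reads numbered 0 on both CG13102 and Rcd-1r in every library, whereas Rcd-1 had 115 and 242 in the Zeus libraries and 36 and 56 in the Caf40 libraries. The read counts were almost the same, at 62, 108, 2103 and 2487 on Rcd-1r and 63, 109, 2108 and 2490 on CG13102 (Zeus libraries first). The sources used here do not state whether counting used strand. Reads of Rcd-1r and CG13102 cannot be told apart, and the genes count as 1 measurement.

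**Figure D1:**
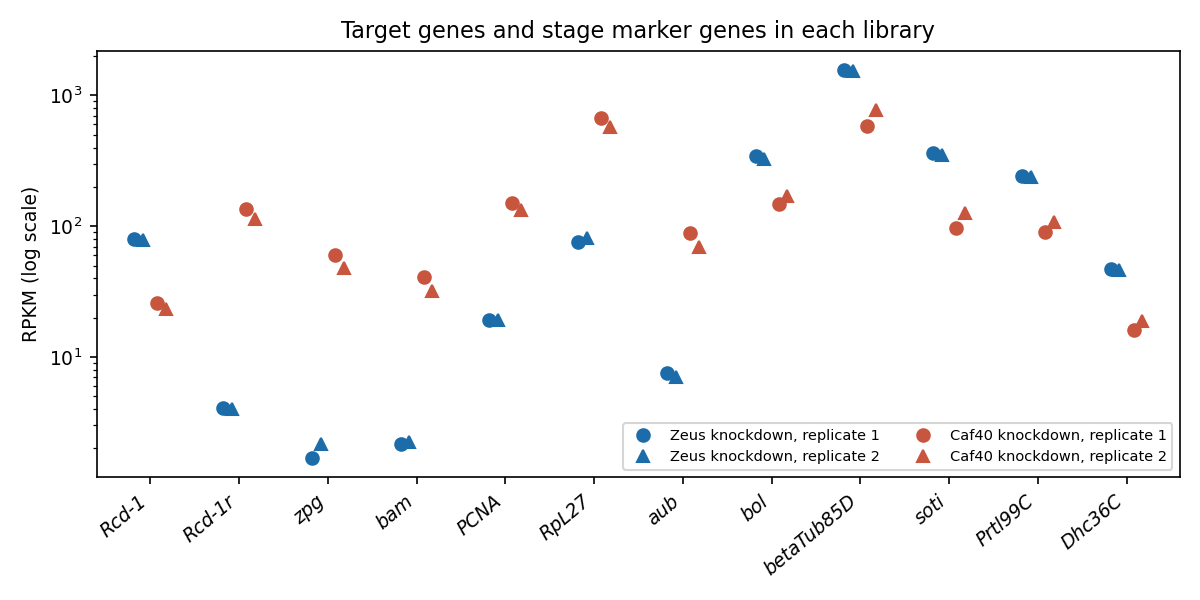
RPKM (log scale) of the target genes and of 10 genes picked from the gene lists, one point per library, with Zeus knockdown in blue and Caf40 knockdown in red. Rcd-1r, zpg, bam, PCNA, RpL27 and aub were higher in both Caf40 libraries, and Rcd-1, bol, betaTub85D, soti, Prtl99C and Dhc36C were higher in both Zeus libraries. Caf40 replicate 2 lies on the Zeus side of replicate 1 for each of the 10. Some members of the same lists, not shown, differ from these. mei-P26 went against zpg and bam, and tef, ord, sunn and aurB went against bol. Tpl94D, listed with Prtl99C, was not called.

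The knockdowns differed across most of the testis transcriptome. Of the 10184 genes tested, 8411 (82.6%) passed an adjusted p of 0.05, with 3894 (38.2%) higher in the Zeus knockdown and 4517 (44.4%) higher in the Caf40 knockdown. Differences of at least 2-fold were found for 1963 genes (19.3%) higher in Zeus and 2644 genes (26%) higher in Caf40. At least 4-fold differences numbered 191 (1.88%) higher in Zeus and 769 (7.55%) higher in Caf40, and at least 16-fold differences 13 and 38. Which side held more of the large differences depended on the scaling. When every library was given the same median RPKM, 3260 genes were at least 2-fold and 682 at least 4-fold higher in Zeus, against 1585 and 369 higher in Caf40. Without Caf40 knockdown replicate 2 the 4-fold counts were 385 and 805. RPKM values of the groups did not overlap for 93% of the tested genes. How the calls split by direction depended on the scaling. Of the genes called, 46.3% were higher in Zeus with TMM, 50.4% with DESeq2's size factors, 35.8% with library totals and 60.8% when every library was given the same median RPKM. These scalings moved the median log2 difference of all genes, which was -0.15, by 0.13, -0.34 and 0.45 respectively. Under all 4 scalings 3030 genes (29.8%) were called higher in Zeus and 3228 (31.7%) higher in Caf40, and gene groups below are read against these shares. In whole tissue, fewer cells of a type and less RNA per cell cannot be told apart, and this holds for every difference that follows.

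Direction differed between expression levels. Among the 1334 genes with a mean of at least 100 RPKM, 78.9% were higher in the Zeus knockdown and 16.7% higher in the Caf40 knockdown, with a median log2 difference of 0.81. Among the 2521 genes from 3 to 10 RPKM, 21.6% were higher in Zeus and 60.3% higher in Caf40, with a median of -0.68, and the 2958 genes from 10 to 30 RPKM had a median of -0.48. The order did not run through to the lowest levels, since among the 1355 genes from 1 to 3 RPKM 31.8% were higher in Zeus and 34.8% higher in Caf40, with a median of -0.12. The 100 most abundant genes took 24.3% and 24.2% of reads in the Zeus libraries and 19.4% and 20.6% in the Caf40 libraries. Genes at least 2-fold higher in Zeus had a median exon length of 1363 bases, against 1912.5 bases for those at least 2-fold higher in Caf40 and 1808 bases for the other tested genes. They also had reads on exon junctions less often, in 41.7% of genes against 54.4% and 52.9%. These are descriptions of the classes and were not tested.

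**Figure D2:**
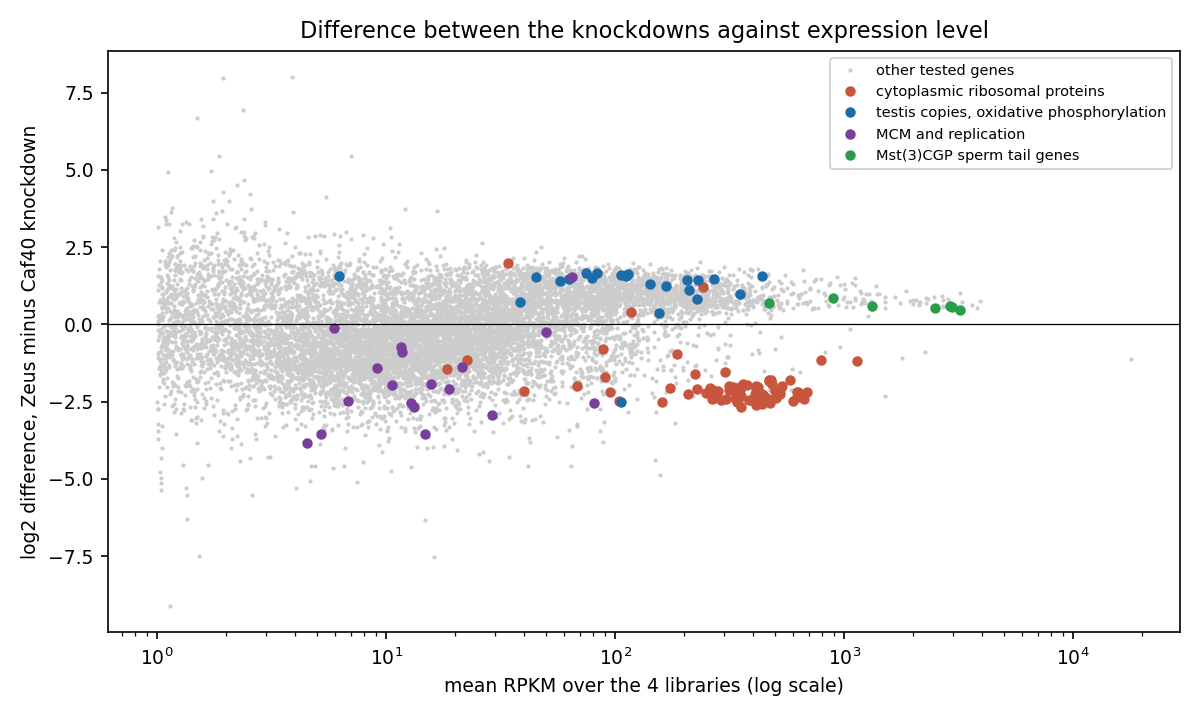
Log2 difference, Zeus minus Caf40 knockdown, against mean RPKM over the 4 libraries (log scale), one point per tested gene, with 4 gene lists in colour. Abundant genes lie mostly above 0, the Mst(3)CGP genes among them, while the cytoplasmic ribosomal protein genes form a separate cloud around their median of -2.19.

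Genes were named for size by a rule that asked for an adjusted p under 0.05, at least 5 RPKM on average in one of the groups, no overlap between groups and the same call under library totals and under equal medians. Of the genes that met it, the 15 with the largest log2 difference in each direction are taken up here. On the Zeus side, CG13230 had 60 reads over both Zeus libraries (7.77 and 7.70 RPKM) and 0 reads in the Caf40 libraries, which makes it at least 17.8-fold higher in Zeus when the Caf40 group is set to a floor of 3 reads. CG14369 measured 13.2 and 14.1 RPKM against 0.671 and 0.160 RPKM and CG6154 measured 9.84 and 10.7 RPKM against 0.603 and 0.829 RPKM, with log2 differences of 5.44 and 4.13. Each of these was low or absent in both Caf40 libraries and even between the Zeus libraries.

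DIP-delta, an immunoglobulin-domain protein of the cell surface, measured 22.3 and 22.1 RPKM in the Zeus knockdown and 1.78 and 2.30 RPKM in the Caf40 knockdown (log2 difference 3.75, SE 0.15, adjusted p = 1.1e-10). Arr1, an arrestin that shuts off rhodopsin in photoreceptors, measured 30.2 and 30.4 and 2.52 and 3.34 RPKM in the same order (log2 difference 3.67, adjusted p = 1.1e-10). Serrate (Ser), a ligand of the Notch receptor, measured 6.05 and 5.82 and 0.929 and 0.821 RPKM (log2 difference 3.10, adjusted p = 2.43e-10). All 3 were moderate in the Zeus libraries and low in the Caf40 libraries. The rule required that groups not overlap, which also held for 93% of all tested genes. IFT57, a subunit of intraflagellar transport, which builds cilia, had a log2 difference of 2.90, and Cyp4ad1, a cytochrome P450, one of 2.996. The rest of the 15 comprised CG13203, CG32053, CG30377, CG14915, CG30395 and 2 identifiers without a symbol, at log2 differences from 2.88 to 3.64. CG30377 overlaps CG12159, whose own log2 difference was 0.63.

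On the Caf40 side 12 of the 15 genes measured under 1 RPKM in both Zeus libraries, and the others were CG16772, Rcd-1r and CG13102. Oxp, a gene of the HP1 chromatin protein family, had 1 read over the Zeus libraries and 252 over the Caf40 libraries (39.3 and 25.5 RPKM), a ratio of 283 after division by library size (exact 95% binomial counting interval 50.3 to 11211). CG15422 had 3 reads against 296, a ratio of 111 (counting interval 37.5 to 540). Such intervals cover counting error only. Claspin, the mediator that lets a replication checkpoint kinase be activated, measured 0.155 and 0.158 RPKM in the Zeus knockdown and 8.85 and 6.97 RPKM in the Caf40 knockdown (log2 difference -5.30, SE 0.21, adjusted p = 1.06e-10). It had 9 and 16 reads in the Zeus libraries.

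Caf1-180, the large subunit of the chromatin assembly factor that deposits histones behind replication forks, measured 0.182 and 0.395 RPKM against 10.1 and 8.997 RPKM (log2 difference -4.58, adjusted p = 2.99e-10). Pif1, a DNA helicase, measured 0.548 and 0.332 RPKM against 13.3 and 11.9 RPKM (log2 difference -4.58, adjusted p = 2.11e-10). The zinc-finger transcription factor klu measured 0.4995 and 0.573 RPKM against 17.6 and 12.9 RPKM (log2 difference -4.46, adjusted p = 1.1e-10). In each case replicate 1 was the higher Caf40 library. The wide gap between the groups follows from the rule by which the genes were named. CG16772 was the most abundant of the set, at 10.8 and 6.35 RPKM in Zeus and 311 and 301 RPKM in Caf40 (log2 difference -4.87). Rcd-1r and CG13102, described above, belong to the same 15 and count as 1 measurement. CG3348, CG4757, CG13116 and 2 identifiers without a symbol fell between -5.10 and -4.62, and CG3348 overlaps Hmu, whose log2 difference was -1.84. The last, snoRNA:Me28S-U2134a, had 0 reads in Zeus and 12 in Caf40, at least 4.49-fold higher, and its adjusted p was 0.0771 without Zeus knockdown replicate 2. It overlaps the ribosomal protein gene RpL13A, so its reads cannot be told apart from those of that gene.

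Among the 10 most abundant genes the differences were modest. CG18628 was the highest in all 4 libraries, at 9885 and 9142 RPKM in the Zeus knockdown and 24737 and 27807 RPKM in the Caf40 knockdown, and was the only one of the 10 higher in Caf40 (log2 difference -1.13, SE 0.16, adjusted p = 1.25e-05). The other 9 were higher in Zeus, by log2 differences from 0.46 for Mst87F to 1.02 for CG12699. They included CG31226, CG31740, CG8701, Mst84Dc and Mst84Db and ranged from 2282 to 4505 RPKM. For Mst87F the difference in RPKM was small, 3302 and 3404 in Zeus against 2927 and 3215 in Caf40, and it lost its call with library totals. These calls rested on both Zeus libraries. Without Zeus knockdown replicate 2 the adjusted p of CG18628 was 0.0578, and with either Zeus replicate left out 8 of the 9 others lost their call, at adjusted p from 0.0584 to 0.271.

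Genes of stem cells and spermatogonia were mixed, with the larger differences in the direction of Caf40. Of 9 genes tested, 5 (55.6%) were higher in Caf40, 1 was higher in Zeus and 3 were not called, with log2 differences from -0.19 to 0.01. The 5 kept their call under all 4 scalings, against 31.7% of all genes (list median log2 difference -1.77, against -0.15 for all tested genes). zpg, the gap-junction protein that joins early germ cells to the soma, measured 1.70 and 2.18 RPKM in the Zeus knockdown and 60.8 and 48.1 RPKM in the Caf40 knockdown (log2 difference -4.43, SE 0.16, adjusted p = 7.89e-11). bam, which limits the number of spermatogonial divisions, measured 2.17 and 2.24 RPKM against 41.03 and 32.1 RPKM (log2 difference -3.70, adjusted p = 9.48e-11). The groups lay far apart for both genes, and bam overlaps CG11854 in the annotation. Phf7, a histone reader of the male germline, measured 10.9 and 10.6 RPKM against 80.9 and 65.5 RPKM (log2 difference -2.43), and nanos, the translational repressor whose promoter drives the Gal4, measured 14.7 and 15.8 RPKM against 71.5 and 60.3 RPKM (log2 difference -1.77). nanos overlaps CG11779 in the annotation. The level of ovo was low throughout (0.172 and 0.296 RPKM against 2.88 and 1.76 RPKM). mei-P26, which also limits spermatogonial divisions, went the other way, at 35.8 and 33.3 RPKM against 25.1 and 23.3 RPKM (log2 difference 0.85, adjusted p = 4.5e-06).

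The piRNA pathway, which silences transposons in the germline through small RNAs bound to Piwi proteins, was higher in Caf40 for most members. Of 19 genes tested, 15 were higher in Caf40, 12 of them under every scaling, and 1 was higher in Zeus (median log2 difference -1.22). The cochaperone gene shu, needed to load Piwi proteins, measured 1.74 and 1.89 RPKM in Zeus and 43.2 and 34.7 RPKM in Caf40 (log2 difference -4.07, SE 0.15, adjusted p = 8.52e-11). tej, a Tudor-domain gene of the nuage, measured 1.67 and 1.71 RPKM against 25.3 and 17.7 RPKM (log2 difference -3.31, adjusted p = 1.03e-09). rhi, the HP1 protein that marks piRNA clusters, measured 0.986 and 1.10 RPKM against 14.2 and 10.996 RPKM (log2 difference -3.22, adjusted p = 3.45e-09). aub, the Piwi protein that slices transposon transcripts, measured 7.51 and 7.02 RPKM against 88.3 and 69.7 RPKM (log2 difference -3.11, adjusted p = 1.42e-10). aub overlaps TTLL4A on the opposite strand. The single member higher in Zeus was papi, a Tudor-domain protein on mitochondria (82.4 and 86.7 RPKM against 65.1 and 73.4 RPKM, log2 difference 0.62), and 3 members were not called.

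Replication genes were also higher in the Caf40 knockdown. Of 18 tested, 15 were higher in Caf40, 14 of them under every scaling, and 1 was higher in Zeus (median log2 difference -2.04). RnrL and RnrS, the subunits of ribonucleotide reductase, which makes the building blocks of DNA, measured 1.88 and 1.82 and 5.45 and 5.49 RPKM in the Zeus knockdown and 29.7 and 25.5 and 58.9 and 46.7 RPKM in the Caf40 knockdown, respectively, with log2 differences of -3.56 and -2.93. PCNA, the sliding clamp of DNA polymerase, measured 19.3 and 19.3 RPKM against 152 and 134 RPKM (log2 difference -2.55, SE 0.11, adjusted p = 2.13e-10). Mcm5, a subunit of the replicative helicase, measured 2.97 and 2.87 RPKM against 25.9 and 21.4 RPKM (log2 difference -2.68, adjusted p = 4.03e-10). The other helicase subunits tested, Mcm2, Mcm6, Mcm7 and dpa, lay between -2.55 for Mcm2 and -1.39 for dpa. Orc3, a subunit of the origin recognition complex, was the exception. It measured 93.8 and 86.9 RPKM in Zeus and 37.5 and 40.2 RPKM in Caf40 (log2 difference 1.55, adjusted p = 2.27e-08). Orc3 overlaps CG34315 on the same strand, whose log2 difference was also 1.55, so its reads may be shared with that gene. Orc2 (-2.47) and Orc6 (-3.84) of the same complex were higher in Caf40.

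Of 8 genes of the DNA damage checkpoint, 7 were higher in Caf40 and 1 in Zeus (median log2 difference -1.83), and 6 of the 7 were called under every scaling. The single call in the Zeus direction was lost without Zeus knockdown replicate 2. After Claspin the smallest p-values belonged to p53, which measured 3.51 and 3.84 RPKM against 29.4 and 23.3 RPKM (log2 difference -2.49, adjusted p = 1.04e-09), and to the repair genes rad50 and mre11, with log2 differences of -1.79 and -2.18. Genes of the mitotic cycle were split, with 5 of 12 called each way and a median log2 difference of 0.01 whose sign depended on the scaling. stg, the mitotic Cdc25 phosphatase, measured 0.406 and 0.436 RPKM against 4.35 and 3.31 RPKM (log2 difference -2.82, adjusted p = 5.3e-08), and Cdk1 measured 18.3 and 18.4 RPKM against 73.3 and 58.3 RPKM (log2 difference -1.500). CycB, used in the meiotic divisions as well, measured 50.9 and 49.5 RPKM against 38.3 and 34.2 RPKM (log2 difference 0.80, adjusted p = 7.08e-06), and aurA had a log2 difference of 0.73.

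Among regulators of the spermatocyte programme the calls were in the Zeus direction, but the share called under every scaling was close to the 29.8% of all genes. Of 5 testis TAFs, 4 were higher in Zeus and 1 was not called (median log2 difference 0.63), and 2 (40%) kept the call under every scaling. Those 2 were sa, at 36.4 and 42.7 RPKM against 21.99 and 21.7 RPKM (log2 difference 1.20, adjusted p = 3.96e-07), and the TAF gene can, with a log2 difference of 0.84. Of 8 tMAC genes, 6 were higher in Zeus and 2 were not called (median 0.57), and 3 (37.5%) kept the call under every scaling. They were wuc, at 23.3 and 22.1 RPKM against 13.1 and 13.2 RPKM (log2 difference 1.11), topi (0.92) and vis (0.88). tbrd-2, a testis bromodomain gene, measured 42.0 and 40.96 RPKM against 20.5 and 21.6 RPKM (log2 difference 1.31, adjusted p = 4.28e-08), and tbrd-1 had a log2 difference of 0.71. The related tbrd-3 was not called, at 15.4 and 14.5 RPKM against 17.6 and 19.4 RPKM (log2 difference 0.02).

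Genes of meiosis went both ways. Of 12 tested, 7 were higher in Zeus and 4 higher in Caf40 (median log2 difference 0.43). Under every scaling these shares were 41.7% and 33.3%, against 29.8% and 31.7% of all genes. Among those higher in Zeus, bol, the translational regulator needed to enter meiosis, measured 341 and 325 RPKM against 149 and 171 RPKM (log2 difference 1.39, SE 0.13, adjusted p = 2.22e-07), and its target twe, the meiotic Cdc25 phosphatase, measured 53.02 and 51.7 RPKM against 32.8 and 33.0 RPKM (log2 difference 1.00, adjusted p = 6.29e-07). mei-S332, which protects centromeric cohesion, measured 80.7 and 77.9 RPKM against 36.0 and 45.0 RPKM (log2 difference 1.30). The 4 higher in Caf40 were tef, ord and sunn, which act in chromosome pairing or cohesion, and the kinase aurB of the divisions. tef measured 1.90 and 2.01 RPKM against 14.0 and 11.03 RPKM (log2 difference -2.33), ord 10.8 and 11.1 RPKM against 45.0 and 35.1 RPKM (log2 difference -1.54) and sunn 0.770 and 0.761 RPKM against 7.05 and 5.06 RPKM (log2 difference -2.63). aurB measured 9.71 and 10.8 RPKM against 33.1 and 28.3 RPKM (log2 difference -1.23). The cohesin gene SA2 was higher in Zeus, at 18.2 and 17.6 RPKM against 16.3 and 15.4 RPKM (log2 difference 0.51, call lost with library totals), so roles did not divide the directions.

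Transcripts of spermatids and sperm were higher in the Zeus knockdown, with few exceptions among the listed families. All 8 comet genes, all 8 cup genes and all 7 Mst(3)CGP genes tested were higher in Zeus, with median log2 differences of 0.71, 1.06 and 0.59. Abundant genes in general went the same way. Of the 1334 genes of at least 100 RPKM, 78.9% were higher in Zeus, with a median of 0.81. The comet and Mst(3)CGP medians lay below that value and the cup median above it. The comet and cup genes are transcribed after meiosis, and all of them kept their call under every scaling, as did 5 of the 7 Mst(3)CGP genes, which encode sperm tail proteins. Of those 7, 3 were called without Zeus knockdown replicate 1 and 2 without replicate 2. The comet genes soti and sunz stood apart from the others. soti, an inhibitor of the ubiquitin ligase that starts sperm individualisation, measured 366 and 352 RPKM in Zeus and 97.7 and 127 RPKM in Caf40 (log2 difference 2.01, SE 0.14, adjusted p = 1.31e-08). sunz measured 113 and 107 RPKM against 23.3 and 35.7 RPKM (log2 difference 2.21, adjusted p = 1.72e-08). The remaining comet genes lay between 0.61 and 0.78, and cola and swif share the same reads on 1 strand and count as 1 measurement. Among cup genes the largest log2 difference was that of r-cup, at 69.9 and 65.3 RPKM against 30.6 and 35.9 RPKM (1.35), and the smallest that of w-cup, at 1606 and 1616 RPKM against 1316 and 1467 RPKM (0.54). The call on w-cup was lost without Zeus knockdown replicate 1 (adjusted p = 0.197) or replicate 2 (adjusted p = 0.218).

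Sperm chromatin genes, whose products replace histones in the sperm head, were higher in Zeus in 4 of 5 cases (median log2 difference 1.38). Mst33A measured 448 and 441 RPKM against 134 and 177 RPKM (log2 difference 1.84, SE 0.15, adjusted p = 3.89e-08). Prtl99C measured 242 and 239 RPKM against 89.7 and 107 RPKM (log2 difference 1.62, adjusted p = 3.17e-08). The protamine genes ProtB and ProtA had log2 differences of 1.38 and 1.30. Tpl94D, a transition protein that precedes the protamines, was the exception and was not called, at 152 and 195 RPKM in Zeus and 219 and 239 RPKM in Caf40. It was called higher in Caf40 without Caf40 knockdown replicate 1 (log2 difference -0.14, adjusted p = 0.0143) and had the opposite sign, uncalled, without Caf40 replicate 2 (0.10, adjusted p = 0.0949) and without Zeus replicate 1 (0.11, adjusted p = 0.693).

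All 5 genes of the don juan, ocnus and janus group were higher in Zeus (median 0.69, below the 0.81 of all genes of at least 100 RPKM). The largest difference was that of dj, at 1209 and 1172 RPKM against 738 and 881 RPKM (log2 difference 0.89). All 7 sperm leucylaminopeptidases, abundant structural proteins of the sperm mitochondrion, were higher in Zeus (median 1.28). Of these, S-Lap4 measured 2374 and 2297 RPKM against 1276 and 1505 RPKM (log2 difference 1.08), and S-Lap5 had the largest log2 difference at 1.33. All 10 axonemal dynein and tektin genes tested were at least 2-fold higher in Zeus (median 1.33). Dhc36C, a heavy chain of the motor that bends the sperm tail, measured 46.9 and 46.1 RPKM against 16.1 and 18.9 RPKM (log2 difference 1.74, SE 0.13, adjusted p = 1.94e-08). The 4 Sdic genes among them are near-identical copies, so their separate values are uncertain. The 5 listed Y-linked genes, of 7 tested on that chromosome, were higher in Zeus (median 0.99), for example ORY at 8.76 and 10.7 RPKM against 2.60 and 3.46 RPKM (log2 difference 2.00). Of 6 tubulins, 3 were higher in Zeus, 1 higher in Caf40 and 2 not called, and 5 were higher in Zeus without Caf40 knockdown replicate 2. betaTub85D, the testis isotype used in meiosis and in the axoneme, measured 1562 and 1529 RPKM against 587 and 773 RPKM (log2 difference 1.51, adjusted p = 7.63e-07). gammaTub37C measured 0.459 and 0.526 RPKM against 5.05 and 3.76 RPKM (log2 difference -2.77).

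**Figure D3:**
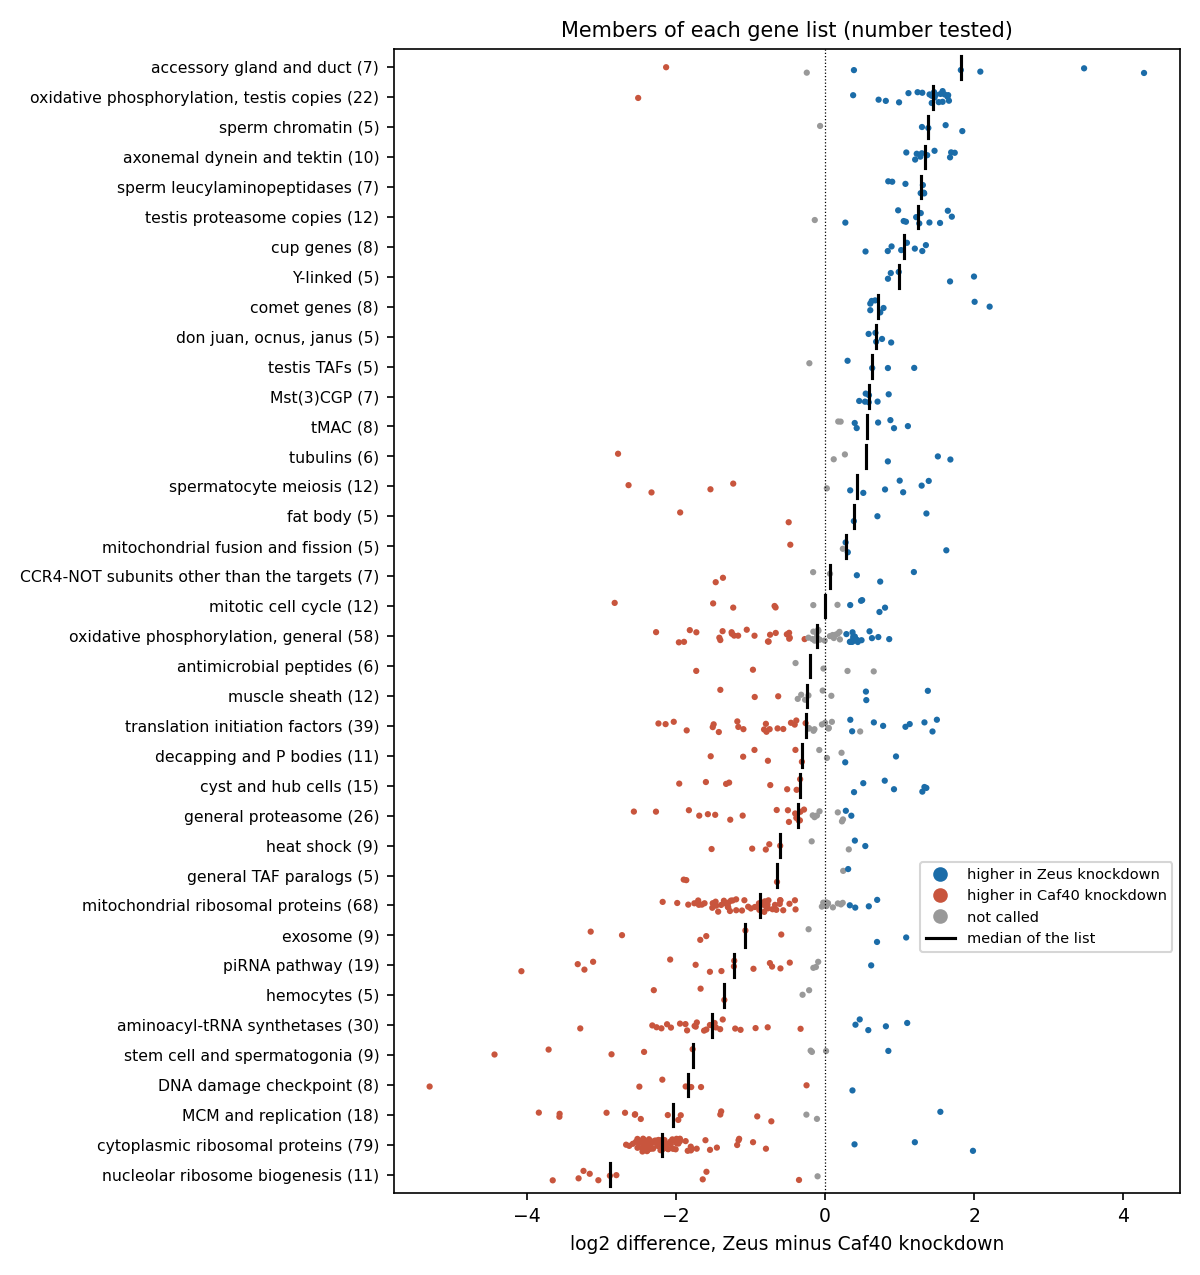
Log2 difference, Zeus minus Caf40 knockdown, of each tested member of the gene lists with at least 5 tested members, coloured by call, with a black bar at the median of the list. Lists of replication, ribosome production and early germline lie left of 0 and those of spermatids and testis copies lie right of 0, with medians from -2.88 for nucleolar genes to 1.45 for testis copies of oxidative phosphorylation. Accessory gland genes, mostly low in level, have the highest median (1.82).

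Ribosomal protein genes were higher in the Caf40 knockdown. The 79 cytoplasmic ribosomal protein genes summed to 9434 and 9700 RPKM in the Zeus libraries and to 53163 and 45853 RPKM in the Caf40 libraries. Of the 79, 76 were higher in Caf40, all 76 under every scaling and 74 by at least 2-fold, and the median log2 difference was -2.19. RpL27 measured 75.3 and 81.1 RPKM against 676 and 578 RPKM (log2 difference -2.67, SE 0.12, adjusted p = 3.04e-10). RpL4, RpL18 and RpS15Aa had log2 differences of -2.62, -2.51 and -2.50. The 3 exceptions were copies or paralogs, and 2 of them were called higher in Zeus under every scaling. RpS28a measured 52.4 and 51.0 RPKM in Zeus and 15.95 and 16.7 RPKM in Caf40 (log2 difference 1.98, adjusted p = 1.79e-07), and RpL10Aa measured 307 and 318 RPKM against 153 and 187 RPKM (log2 difference 1.20, adjusted p = 6.88e-07). For RpS28-like the RPKM values overlapped between groups, and its adjusted p was 0.0721 without Zeus knockdown replicate 1.

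Genes that make ribosomes in the nucleolus had the lowest median of all lists, -2.88, with 10 of 11 higher in Caf40 and 9 under every scaling. NHP2, a protein of the particles that convert uridines in ribosomal RNA to pseudouridine, measured 7.11 and 6.23 RPKM against 108 and 101 RPKM (log2 difference -3.65, SE 0.13, adjusted p = 7.72e-11). nop5 and Nop56, core proteins of the particles that methylate ribosomal RNA, measured 9.59 and 10.5 and 10.02 and 10.9 RPKM in Zeus and 136 and 116 and 136 and 115 RPKM in Caf40, in that order, with log2 differences of -3.30 and -3.24. Nopp140 had a log2 difference of -3.15. Mitochondrial ribosomal proteins went the same way by less, with 54 of 68 higher in Caf40, 43 under every scaling, and 4 higher in Zeus (median -0.87). The 4 became 2 without Zeus knockdown replicate 2 and 7 without Caf40 replicate 2. mRpL1 had the largest difference, at 6.29 and 5.75 RPKM against 37.3 and 31.1 RPKM (log2 difference -2.18).

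Of 30 aminoacyl-tRNA synthetases, which charge transfer RNAs, 25 were higher in Caf40 and 5 higher in Zeus (median -1.52). IleRS, the cytosolic isoleucine enzyme, measured 8.39 and 8.63 RPKM against 52.5 and 45.9 RPKM (log2 difference -2.19, adjusted p = 6.96e-10), and HisRS and LeuRS-m had log2 differences of -2.26 and -2.31. The 5 higher in Zeus included the mitochondrial enzymes ValRS-m (1.10), TrpRS-m (0.82) and CysRS-m (0.58), and TrpRS-m was abundant, at 494 and 495 RPKM against 340.0 and 366 RPKM.

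Translation initiation factors went both ways. Of 39, 20 were higher in Caf40 and 9 higher in Zeus, and the median, -0.26, changed sign when libraries were given the same median. Under every scaling 35.9% were higher in Caf40, near the 31.7% of all genes. The share higher in Zeus was 17.9%, against 29.8% of all genes. eIF3d1 measured 16.1 and 15.5 RPKM in Zeus and 99.2 and 87.9 RPKM in Caf40 (log2 difference -2.23, adjusted p = 5.83e-10), and eIF4G1, the scaffold of the cap-binding complex, measured 11.8 and 11.4 RPKM against 69.8 and 59.0 RPKM (log2 difference -2.14). The testis copy eIF3g2 measured 65.5 and 62.7 RPKM against 27.9 and 31.2 RPKM (log2 difference 1.44, adjusted p = 2.7e-08). eIF4E4, a cap-binding protein, measured 403 and 410.2 RPKM against 160.5 and 201 RPKM (log2 difference 1.499), with eIF4E5 and eIF4E7 at 1.08 and 1.13. eIF2A, which is not a testis copy, was also higher in Zeus (log2 difference 0.65, adjusted p = 0.058 without Zeus knockdown replicate 2), and the testis copy eIF3f2 was not called, at 59.0 and 61.3 RPKM against 88.8 and 80.2 RPKM.

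Testis copies of proteasome and respiratory chain subunits were higher in Zeus. The general subunits were close to all genes only in the share higher in Caf40 under every scaling. Higher in Zeus under every scaling were 0% of general proteasome and 5.17% of general respiratory chain subunits, against 29.8% of all genes. Of 12 testis proteasome copies, 11 were higher in Zeus, 10 under every scaling (median 1.24). Of 26 general subunits, 17 were higher in Caf40, 8 (30.8%) under every scaling, against 31.7% of all genes, and 2 higher in Zeus (median -0.37, which changed sign when libraries were given the same median). The 17 were reduced to 9 without Zeus knockdown replicate 1 and to 10 without replicate 2, and the 2 to 0 without either, while 5 were higher in Zeus with either Caf40 library left out. Of 22 testis copies of oxidative phosphorylation subunits, 21 were higher in Zeus, 20 under every scaling (median 1.45), and of 58 general subunits 23 were higher in Caf40, 17 (29.3%) under every scaling, and 16 higher in Zeus (median -0.11, which changed sign with DESeq2's size factors and with equal medians). The 16 became 8 without Zeus knockdown replicate 1 and 7 without replicate 2. A single testis copy went against the rest. ATPsynepsilonL measured 26.6 and 25.3 RPKM in Zeus and 203 and 169 RPKM in Caf40 (log2 difference -2.50, SE 0.12, adjusted p = 3.45e-10).

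The share of the testis copy in the summed RPKM of the copies does not depend on library scaling. In 37 pairs of a testis copy and its general counterpart, drawn from TAFs, proteasome, respiration, translation and mitochondrial fusion, the share was higher in Zeus in all 37, without overlap between libraries in 36. The median share was 79.7% in Zeus and 42.5% in Caf40. The pairs were chosen by name with earlier results known and leave out some copies. Of 4 further pairs added after seeing the data, 3 went the other way, namely ATPsynepsilonL against sun (62.8% and 62.1% in Zeus and 88.1% and 84.5% in Caf40), RpS5b against RpS5a (42.9% and 44.2%, and 49.4% and 47.9%) and RpL22-like against RpL22 (70.6% and 70.8%, and 76.7% and 76.6%). COX7AL2 against COX7A went with the 37, which made 38 of 41 pairs higher in Zeus. The pairs share general genes in some cases, so they are not independent. In 29 of the 37 pairs the testis copy was called higher in Zeus and the general copy higher in Caf40.

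The largest shift was that of eIF3g2 against eIF3g1, whose testis share was 80.4% and 80.3% in the Zeus libraries and 26.1% and 32.8% in the Caf40 libraries. Prosbeta4R1 against Prosbeta4, a beta subunit of the proteasome core, had testis shares of 69.5% and 66.9% in Zeus and 14.9% and 23.1% in Caf40. SdhBL against SdhB, the iron-sulphur subunit of succinate dehydrogenase, had shares of 95.2% and 93.7% in Zeus and 59.9% and 63.3% in Caf40. RpS28a against RpS28b had shares of 29.7% and 29.4% in Zeus and 2.40% and 2.96% in Caf40. fzo, the mitofusin of spermatids, had shares against its general counterpart Marf of 71.4% and 70.3% in Zeus and 45.2% and 50.8% in Caf40. Caf40 replicate 2 had the higher testis share of the Caf40 libraries in these pairs and in 34 of the 37. The exception without separation was ND-B14.5AL against ND-B14.5A, at 79.8% and 84.1% in Zeus and 80.6% and 79.6% in Caf40.

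**Figure D4:**
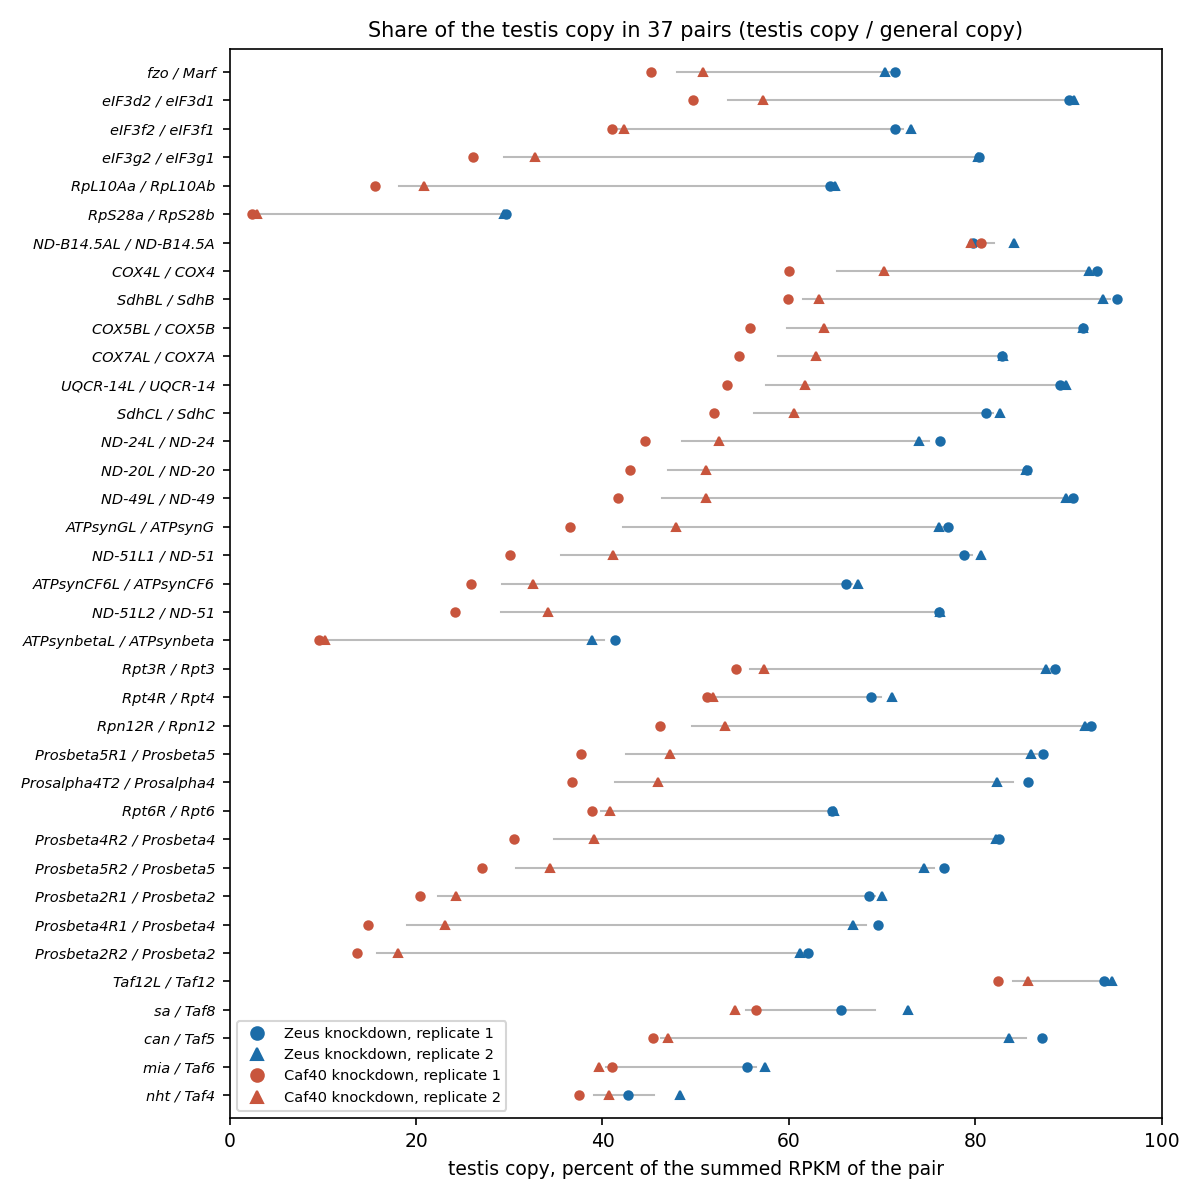
Percent of the summed RPKM of a pair that came from the testis copy, one row per pair and one point per library, with grey lines joining the group means. The Zeus points lie to the right of the Caf40 points in 36 of 37 rows, and Caf40 replicate 2 lies to the right of replicate 1 in 34.

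Subunits of CCR4-NOT other than the targets went both ways, with 3 of 7 higher in Zeus, 2 higher in Caf40 and 2 not called. Their median was 0.07, which changed sign with library totals. Under every scaling 28.6% were higher in Zeus and 28.6% higher in Caf40. These shares were close to the 29.8% and 31.7% of all genes, so the counts do not set this list apart. Not3, a scaffold subunit, measured 14.6 and 14.5 RPKM in Zeus and 54.4 and 47.2 RPKM in Caf40 (log2 difference -1.47, SE 0.11, adjusted p = 2.02e-08). Rga, the NOT2 subunit that pairs with Not3, measured 9.54 and 9.64 RPKM against 33.8 and 28.8 RPKM (log2 difference -1.37, adjusted p = 2.91e-08), so both partners were higher in Caf40. twin, the deadenylase CCR4, measured 321 and 297 RPKM against 163 and 178 RPKM (log2 difference 1.19, adjusted p = 7.72e-07), and Cnot4, a ubiquitin ligase, 56.4 and 55.8 RPKM against 40.9 and 43.7 RPKM (log2 difference 0.74, adjusted p = 2.45e-05). The central scaffold Not1, at 103 and 98.7 RPKM against 127 and 116 RPKM, was not called (log2 difference 0.07). Its log2 difference was 0.10 without Caf40 knockdown replicate 1 and 0.08 without replicate 2. The sign depended on the scaling, as the RPKM values were lower in both Zeus libraries. Not3 overlaps CG1344, and twin overlaps cav.

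Genes of the decay steps that follow deadenylation were more often called higher in Caf40 than in Zeus. For decapping and P-body genes the share higher in Caf40 under every scaling, 36.4%, was near the 31.7% of all genes. The share higher in Zeus was 9.09%, against 29.8% of all genes. For exosome genes these shares were 55.6% in Caf40 and 22.2% in Zeus. Of 11 decapping and P-body genes, 6 were higher in Caf40 and 2 higher in Zeus (median -0.31, which changed sign when libraries were given the same median), and 1 was higher in Zeus when a Zeus library was left out. brat, a translational repressor, measured 3.57 and 3.42 RPKM against 15.1 and 10.5 RPKM (log2 difference -1.53), and bru1, an RNA-binding repressor, measured 334 and 323 RPKM against 205 and 222 RPKM (log2 difference 0.95, adjusted p = 1.09e-05). Of 9 exosome genes, 6 were higher in Caf40 and 2 higher in Zeus (median -1.07). Dis3, the catalytic nuclease of the exosome, measured 1.83 and 1.80 RPKM against 22.6 and 17.9 RPKM (log2 difference -3.14, SE 0.13, adjusted p = 1.6e-10). Rrp6, the nuclear exosome nuclease, went the other way at 122 and 122 RPKM against 69.1 and 75.6 RPKM (log2 difference 1.09, adjusted p = 8e-07), and it overlaps CG3631.

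Genes of the machinery through which the hairpins act were called in both directions. Of 4 genes tested, 3 were higher in Caf40 and 1 higher in Zeus (median -0.99). Among all tested genes 82.6% were called, 44.4% higher in Caf40 and 38.2% higher in Zeus, so calls on 4 genes do not set this group apart. Dcr-2, which cuts long double-stranded RNA, measured 15.9 and 17.1 RPKM in Zeus and 55.7 and 45.5 RPKM in Caf40 (log2 difference -1.28, adjusted p = 1.71e-07), and its partner r2d2 measured 9.03 and 8.80 RPKM against 24.7 and 21.8 RPKM (log2 difference -1.05). loqs, a partner of both Dicers, was higher in Zeus, at 129 and 127 RPKM against 70.8 and 76.7 RPKM (log2 difference 1.13). The part of these differences in the depth of each knockdown was not tested.

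Markers of somatic testis cells and of neighbouring tissues were examined because a dissected testis can hold them. The 15 cyst and hub genes summed to 254 and 253.6 RPKM in the Zeus libraries and 260.0 and 259.9 RPKM in the Caf40 libraries, with 7 members higher in Zeus and 8 higher in Caf40. dlg1, a junction protein, measured 2.06 and 2.25 RPKM against 11.6 and 9.57 RPKM (log2 difference -1.95), and tj, a transcription factor of early cyst cells, 1.06 and 1.10 RPKM against 4.61 and 3.76 RPKM (log2 difference -1.60). so, of later cyst cells, and the hub ligand upd1 were higher in Zeus, with log2 differences of 1.33 and 1.30. The 12 muscle sheath genes summed to between 318 and 344 RPKM in the 4 libraries. The parts of these cells in the germline differences were not tested.

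Accessory gland genes summed to 157 and 146 RPKM in the Zeus libraries and 448 and 490.2 RPKM in the Caf40 libraries, and the largest single part was EbpIII (75.1 and 72.7 RPKM against 389.9 and 423 RPKM, log2 difference -2.13). Of the 16 genes matched, 9 were below a mean of 1 RPKM, and 5 of the 7 tested were higher in Zeus, among them Acp36DE at 5.29 and 5.16 RPKM against 1.70 and 1.43 RPKM. The sex peptide gene, a defining marker of the gland, was at 1.39 and 0.597 RPKM in Zeus and at 0 in both Caf40 libraries. Fat body genes summed to 151 and 115 RPKM against 569 and 594 RPKM, of which Tsf1, a transferrin, gave 134 and 98.3 RPKM against 548 and 575 RPKM, while the defining markers Yp1, Yp2 and Fbp1 were at or near 0 in all libraries. Hemocyte genes summed to 18.9 and 16.7 RPKM against 88.0 and 82.5 RPKM, mostly crq, a receptor for apoptotic cells, at 12.2 and 10.7 RPKM against 69.8 and 71.0 RPKM (log2 difference -2.29). Gut genes summed to between 12.7 and 24.2 RPKM, with lysozyme genes at or near 0. The fat body and hemocyte totals in all libraries, and the accessory gland total in Caf40, came mostly from 1 gene each, and their part in other results was not tested.

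Stress genes did not all go the same way, and most of the heat shock genes called were higher in Caf40. Of 9 heat shock genes tested, 5 were higher in Caf40 and 2 higher in Zeus (median -0.60), led by Hsp27 at 131 and 139.9 RPKM against 522 and 458 RPKM (log2 difference -1.52). The heat shock genes summed to 1197 and 1216 RPKM in Zeus and to 2735 and 2460 RPKM in Caf40. Their median was negative under every scaling, from -0.94 with library totals to -0.15 with equal medians. Under every scaling 33.3% were higher in Caf40, near the 31.7% of all genes. The share higher in Zeus was 0%, against 29.8% of all genes. The stress-induced Hsp70 genes were at or near 0 in every library. Without Zeus knockdown replicate 2 the heat shock genes higher in Zeus numbered 1. Of 6 antimicrobial peptide genes tested, 2 were higher in Caf40, 1 without Zeus knockdown replicate 2 or without Caf40 replicate 2, and AttC reached 11.1 and 11.1 RPKM. MtnA, the main metallothionein, measured 1018 and 925 RPKM against 2524 and 2684 RPKM (log2 difference -1.09, adjusted p = 1.2e-06), and MtnC measured 11.7 and 18.1 RPKM against 5.17 and 8.22 RPKM (log2 difference 1.49, adjusted p = 0.00236), the opposite direction. Without Zeus knockdown replicate 2 the adjusted p of MtnC was 0.0908.

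By chromosome, the arms 2L, 2R, 3L and 3R were close to the shares over all genes, with 38.4% to 42.5% of genes higher in Zeus and 40.5% to 44.3% higher in Caf40. On the X chromosome 34.6% of 1448 genes were higher in Zeus and 49.4% higher in Caf40 (median log2 difference -0.36). Chromosome 4, which is small and largely heterochromatic, had the lowest median, with 4 of 55 genes higher in Zeus and 39 (70.9%) higher in Caf40, 28 of the 39 under every scaling (median -0.76). Among its genes were ATPsynbeta, at 60.7 and 68.8 RPKM against 312 and 293 RPKM, ND-49, at 12.5 and 13.7 RPKM against 59.4 and 50.7 RPKM, and eIF4G1, given above. On the Y chromosome 5 of 7 genes were higher in Zeus and 2, copies of the Su(Ste) repeat, higher in Caf40, all under every scaling (median 0.88). Genes of 1 chromosome are not independent of one another, and the differences between chromosomes were not tested.

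**Figure D5:**
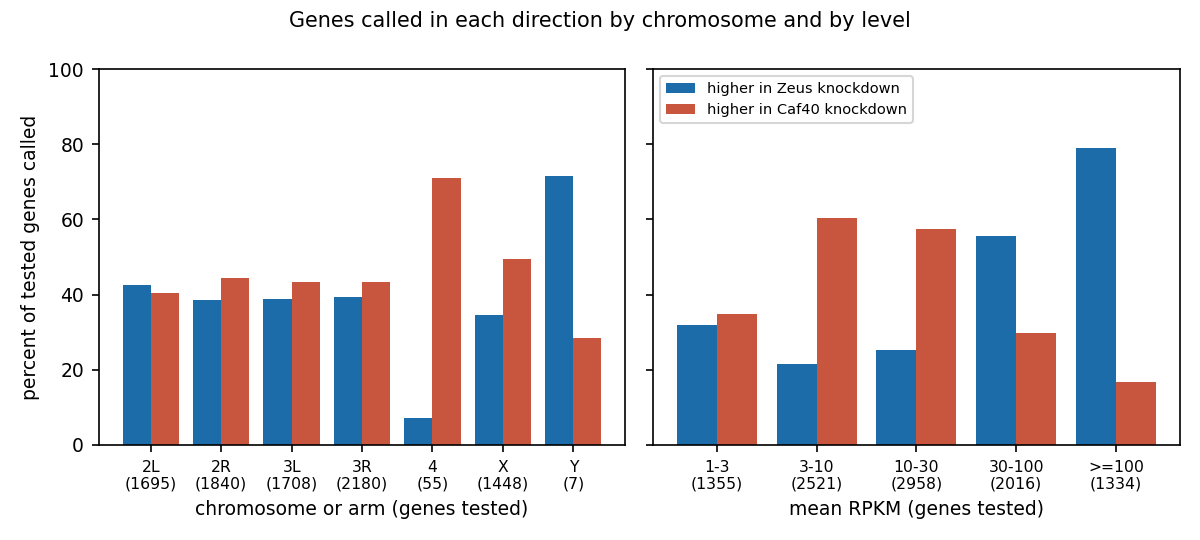
Percent of tested genes called higher in the Zeus knockdown (blue) or in the Caf40 knockdown (red) by chromosome or arm on the left and by mean RPKM over the 4 libraries on the right, with the number of genes tested in brackets. On chromosome 4 70.9% of genes were higher in Caf40, and among genes of at least 100 RPKM 78.9% were higher in Zeus.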

How the data were processed

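The members and the gene lists were chosen with earlier results of these data known. Alignment was with Bowtie to the dm3 build, per the submitters' processing notes. No source used here gives the aligner version, annotation release, strand setting or treatment of reads with several matches. The deposited tables hold, per the file headers, each gene's raw read count, exon length and RPKM value together with the library totals, and the RPKM was recomputed from these to within rounding. Libraries were not pooled.

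Counts of the 10184 genes with a mean of at least 1 RPKM were tested with edgeR 4.0.16 in R 4.3.3 (TMM, quasi-likelihood test, 2 libraries against 2, no block, two-sided, Benjamini-Hochberg adjustment over all genes tested, threshold 0.05). The common biological coefficient of variation was 0.0824. Standard errors are the log2 difference over the square root of F. For 1 gene an exact permutation test could at best reach p = 0.333. The procedure was tested on simulated data in which few genes were changed, evenly up and down, with the same spread in both groups. That test does not cover data in which most genes differ or the groups vary unequally, as here. Symbols came from a BDGP6 gene table (12862 of 15178 identifiers, 84.7%), which differs from the authors' build and so gave only names, chromosomes and overlaps between genes. Lists and the 37 pairs were described by counts, medians and shares. Genes were named by the rule given with the results, with the 10 most abundant genes and mainly the members of each list with the smallest p-values, and further members were named after their values were seen. Alternatives were other scalings, filters, tools (DESeq2 1.42.0, limma 3.58.1 on log2(RPKM + 1)), reads on the genome alone, a replicate block and leaving out each library.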

Additional observations from a re-analysis of the deposited data

How the results depend on the processing

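With 2 libraries per group, every statement on direction rests on pairs of libraries, and depth limits genes under about 3 reads per library. The counts of all genes kept their size within 1.5 times under other scalings, filters and tools, except those of at least 2-fold differences. Genes at least 2-fold higher in Zeus numbered 1118 with library totals, 3260 with equal median RPKM and 916 with limma on log2(RPKM + 1), and those at least 2-fold higher in Caf40 numbered 1585 with equal medians. At least 4-fold differences in the Zeus direction, 191 with TMM, numbered 110 with library totals, 682 with equal medians, 361 without a filter, 48 above 5 RPKM and 24 with limma. In the Caf40 direction they went from 769 to 1234 with library totals and to 369 with equal medians. The cause was not tested.

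Leaving out 1 library at a time gave 7312 to 8677 called genes, 3303 to 4106 higher in Zeus and 4009 to 4571 higher in Caf40, of which 1696 to 2363 and 2500 to 2665 differed at least 2-fold. Rcd-1 then lay between 2.01 and 2.06 and Rcd-1r between -4.64 and -4.51. Where a group was left with 1 library, that library was assumed to vary like the other group, and without a Caf40 library the spread rested on the close Zeus pair.

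Of the 169 named genes, 4 lost their call with library totals, 9 with limma, 1 with equal medians, 10 without Zeus replicate 1 and 13 without Zeus replicate 2, and Tpl94D, Not1 and eIF3f2 changed sign. Tpl94D had log2 differences of 0.067 with DESeq2's size factors in edgeR and 0.067 with DESeq2, 0.38 with equal medians, 0.11 without Zeus replicate 1, -0.27 without Zeus replicate 2 and 0.10 without Caf40 replicate 2. eIF3f2 had 0.29 with equal medians. Not1 had -0.27 with library totals and -0.26 with limma. With a replicate block 3864 genes were higher in Zeus and 4506 higher in Caf40. The replicate differences of the 2 groups were uncorrelated across genes (correlation 0.00045). The labels do not say whether a replicate number marks a shared batch, and a single correlation cannot exclude one.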
